A study of Mus musculus with 6 samples.

Results

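The proteasome genes of mouse testicular germ cells were compared between Mgat1 cKO and control males. A gene was taken as a member when its symbol began with Psm, followed by a letter from a to g and a number, and 49 of the 23152 genes measured on the array met that rule. The list holds the subunits of the core particle (Psma and Psmb), of the regulatory particle (Psmc and Psmd), the activators (Psme), the inhibitor Psmf1 and the assembly chaperones (Psmg and some Psmd). It also holds Psmc3ip, which matches by symbol alone and encodes a meiotic recombination factor. The members had 576 probe sets with a single gene symbol, between 2 and 44 a gene with a median of 10, and the value of a gene was the mean of its probe sets.

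Germ cells came from FVB males at 22 days of age, 3 Mgat1 cKO and 3 control mice, with 1 array for each mouse. Both groups carried floxed Mgat1 alleles. Mgat1 cKO mice also carried Stra8-iCre, a transgene in which the Stra8 promoter drives Cre in spermatogonia, so the somatic cells of the testis kept the gene, and control mice had no Cre. MGAT1 is the enzyme that starts the synthesis of hybrid and complex N-glycans. The cells were released by enzymatic digestion of the testis and were not sorted. Values are log2 signals after robust multi-array averaging (RMA), and a gene is described as having risen or fallen only where its adjusted p was under 0.05 in the limma fit over all genes.

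The 26S proteasome degrades proteins that carry ubiquitin chains. Its 20S core is a barrel of alpha rings around beta rings, and the beta rings hold the catalytic sites. The 19S regulatory particle recognises, unfolds and feeds in the substrate, while activators of the PA28 family (Psme1, Psme2 and Psme3) and PA200 (Psme4) cap the barrel in its place. Male germ cells are known for a form of the core in which Psma8 replaces Psma7, and for the use of PA200, which in the mouse is needed for normal spermatogenesis. The immune subunits Psmb8, Psmb9 and Psmb10 take the place of the standard catalytic subunits Psmb5, Psmb6 and Psmb7 in cells exposed to interferon and in immune cells, and Psmb11 does so in the thymic cortex.

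Over all genes the arrays separated by genotype, with correlations of 0.992 to 0.994 within groups and 0.950 to 0.970 between them. Mgat1 itself was at 6.87, 6.69 and 6.80 in Mgat1 cKO germ cells, against 6.91, 7.003 and 6.82 in control germ cells (log2 fold change -0.13, adjusted p = 0.356 by limma), and none of its 12 probe sets passed the test, so this array gave no check of the labels through the targeted gene. Markers of the germ cell stages differed between the groups. All 12 elongating spermatid markers rose (median log2 fold change 2.89), with the nuclear transition protein gene Tnp2 at 4.57, Tnp1 at 3.90 and Spem1 at 3.68. Of 12 round spermatid markers, 9 rose and none fell (median 1.65), while 7 of 10 meiotic prophase markers fell and none rose (median -0.53). Of 10 pachytene markers 4 rose (40%, against 13.3% of all genes) and 2 fell. Of 10 spermatogonial markers 2 fell, so both lists had 20% lower, near the 18.4% of all genes. Among somatic markers, 7 of 10 stromal (70%), 4 of 11 Sertoli (36.4%) and 2 of 7 Leydig cell genes (28.6%) fell. In the Leydig list 1 gene, Insl3, rose (0.43). These marker levels moved with the groups in every comparison below, and their part in the results for the proteasome genes was not tested. In a bulk preparation fewer cells of a type cannot be told apart from less RNA per cell.

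The proteasome genes did not move as a block. In Mgat1 cKO germ cells 6 members rose (12.2%, against 13.3% of all genes) and 10 fell (20.4%, against 18.4% of all genes), which left 33 not called. The share of members called in either direction was 32.7%, against 31.7% of all genes, so the family was called about as often as any gene on the array. The genes that rose were Psme2, Psmd10, Psma6, Psmf1, Psmc2 and Psme4. The genes that fell were Psmg1, Psmd5, Psma7, Psmd14, Psmc6, Psmc4, Psma1, Psme1, Psma8 and Psmb2. No member reached 2-fold, whereas 4.67% of all genes were called with a change of that size. Over the members the median log2 fold change was -0.11, beside -0.02 over all genes, and 37 members had a negative value. The share of negative values over all genes was not counted. The median signal of the whole array was 7.31, 7.32 and 7.31 in Mgat1 cKO arrays, against 7.35, 7.38 and 7.36 in control arrays. For 30 members the whole 95% interval of the log2 fold change lay between -0.5 and 0.5.

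**Figure D1:**
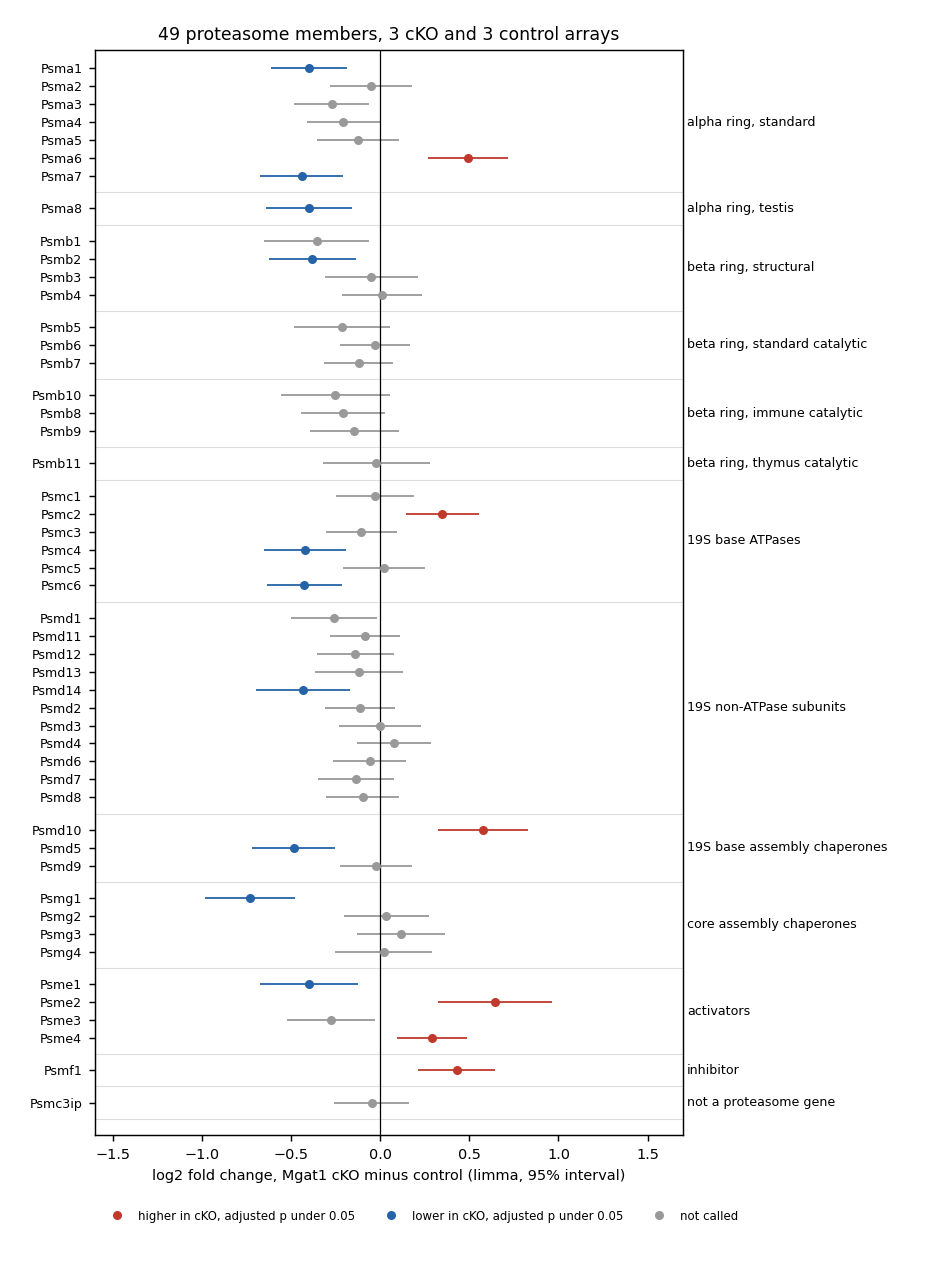
Log2 fold change of the 49 members, Mgat1 cKO minus control, with its 95% interval from limma on 3 arrays per group, arranged by role. The 6 members that rose (red) and the 10 that fell (blue) are spread over most roles, from -0.73 for Psmg1 to 0.64 for Psme2.

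The groups of arrays did not overlap for 22 members (44.9%, against 46.7% of all genes), with 6 of these higher (20.1% of all genes) and 16 lower (26.6% of all genes) in Mgat1 cKO germ cells. The Mgat1 cKO arrays differed among themselves. Replicate 1 was the lowest Mgat1 cKO array for 32 of the 49 members and replicate 3 the highest for 37. The mean over all members was 8.87, 8.94 and 9.02 in the 3 Mgat1 cKO arrays, against 9.07, 9.05 and 9.01 in the 3 control arrays, so the third Mgat1 cKO array lay within the range of the control arrays. Without Mgat1 cKO replicate 1, 6 members fell instead of 10, and without Mgat1 cKO replicate 2, 5 fell. The calls also moved with the summary of the probe sets and with the test. On the median signal of the probe sets of a gene the calls of Psme4, Psme1, Psma1, Psma6, Psmb2, Psmc2, Psmc4, Psmc6 and Psmd14 were lost. On the brightest probe set those of Psme4, Psme1, Psme2, Psma7, Psma8, Psmc2, Psmc6 and Psmd14 were lost, and by the methods' one-way test, which takes the spread of each gene by itself, those of Psme1, Psme2, Psma8, Psmb2, Psmc4 and Psmd14.

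**Figure D2:**
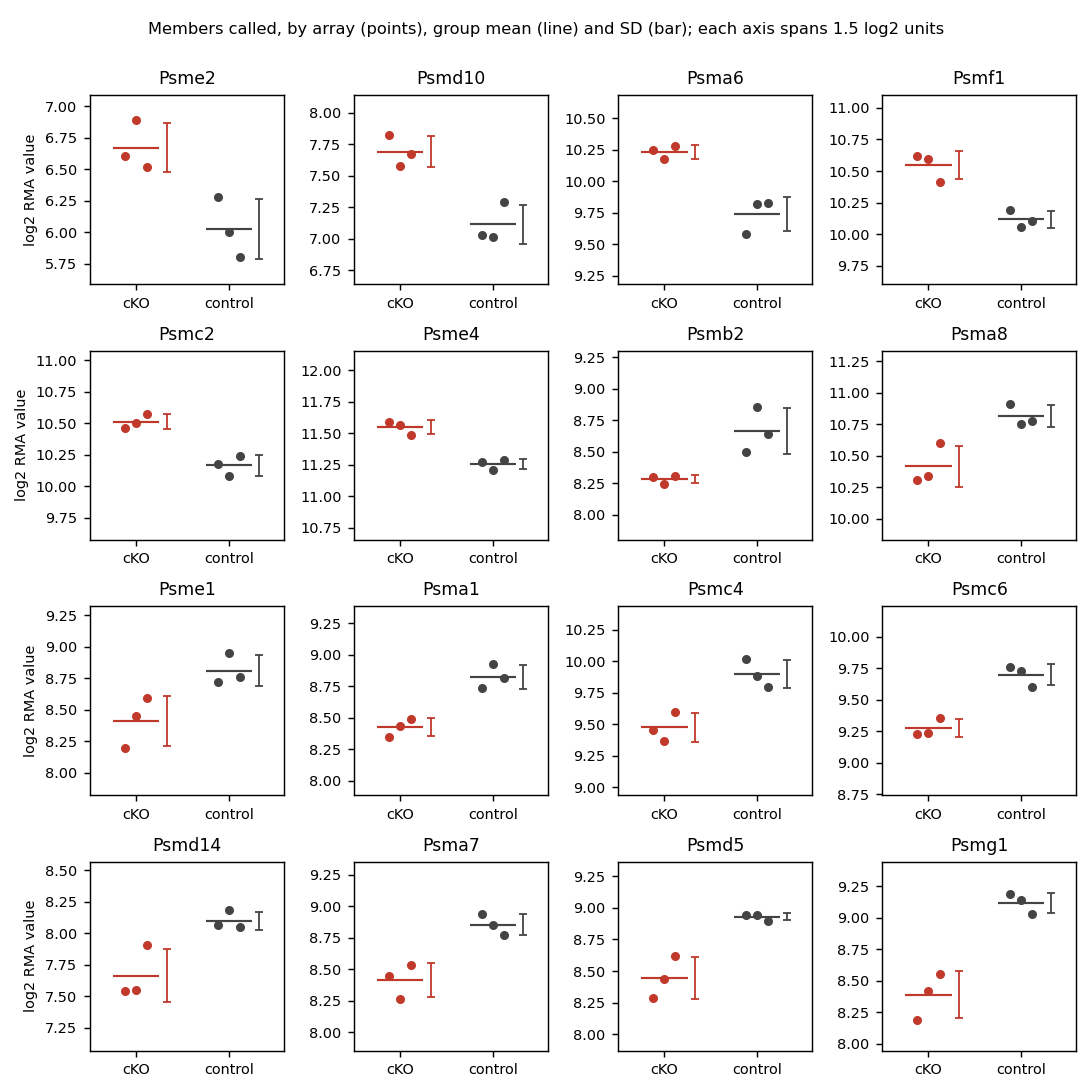
Log2 RMA value of the 16 called members in each array, with the group mean (line) and SD (bar), Mgat1 cKO on the left and control on the right of each panel. The groups do not overlap for any of the 16, and the differences are at most 0.73 log2 units.

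In the alpha ring, which gates the entry of substrates, 1 of the 7 standard subunits rose and 2 fell (median -0.21). Of all genes 13.3% rose and 18.4% fell. Psma6 stood at 10.25, 10.17 and 10.28 in Mgat1 cKO arrays, against 9.58, 9.82 and 9.82 in control arrays, which is a rise of 0.49 (SE 0.10, adjusted p = 0.00547 by limma). Of this rise 1 dim probe set, itself 2.62 higher, carried much, and without it the rise was 0.28 (adjusted p = 0.039 by limma). Psma7 stood at 8.44, 8.26 and 8.53 in Mgat1 cKO arrays, against 8.94, 8.85 and 8.77 in control arrays, and fell by 0.44 (adjusted p = 0.0106 by limma). Of its 9 probe sets 8 were lower, and the brightest was higher (0.42) and not called. Both differences were larger than the spread within either group, and they ran in opposite directions. Psma1 was at 8.35, 8.44 and 8.49, against 8.73, 8.92 and 8.82 in control arrays, and fell by 0.40 (adjusted p = 0.0112 by limma), with all 11 of its probe sets lower in Mgat1 cKO germ cells. Psma3 (log2 fold change -0.27) and Psma4 (-0.21) also had non-overlapping groups and no probe set that was higher in Mgat1 cKO germ cells, but missed the threshold with adjusted p = 0.052 and 0.114 by limma.

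Psma8, the alpha subunit of the testis form of the core, fell. Its values were 10.31, 10.34 and 10.60 in Mgat1 cKO arrays, against 10.91, 10.75 and 10.77 in control arrays, a difference of -0.40 (SE 0.11, adjusted p = 0.0201 by limma), and all 9 probe sets were lower in Mgat1 cKO germ cells. The third Mgat1 cKO array was the closest to the control arrays. The call was lost without Mgat1 cKO replicate 1 (-0.34), Mgat1 cKO replicate 2 (-0.36) or control replicate 1 (-0.35), although the direction held. Psma8 fell along with its standard counterpart Psma7. The log2 difference between the genes was 1.86, 2.07 and 2.06 in Mgat1 cKO arrays and 1.97, 1.89 and 2.01 in control arrays, so the change of Psma8 minus that of Psma7 was 0.04 and the groups overlapped (exact permutation test, 2-sided p = 0.6, n = 3 each). That difference was -0.80 on the brightest probe sets and 0.40 on the median signal of the probe sets.

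In the beta ring, 1 of the 4 structural subunits fell, where 18.4% of all genes did. None of the 3 standard, 3 immune or 1 thymic catalytic subunits was called by limma or had an unadjusted p under 0.05. Psmb2, which was at 8.30, 8.25 and 8.31 in Mgat1 cKO arrays, against 8.50, 8.86 and 8.64 in control arrays, fell by 0.38 (adjusted p = 0.0249 by limma), and all 9 probe sets were lower. This call was lost without any one array other than control replicate 1 (-0.39 to -0.28). Psmb1 had the largest difference among members that were not called (-0.36, adjusted p = 0.0663 by limma), and Mgat1 cKO replicate 3, at 10.35, lay within the control range of 10.35 to 10.49. The standard catalytic subunits Psmb5 (log2 fold change -0.22, 95% interval -0.49 to 0.05), Psmb6 (-0.03, -0.22 to 0.16) and Psmb7 (-0.12, -0.31 to 0.07) carry the chymotrypsin-like, caspase-like and trypsin-like activities.

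The immune catalytic subunits gave negative differences that did not pass the test over all 6 arrays. Psmb8 was at 6.33, 6.58 and 6.48 in Mgat1 cKO arrays, against 6.54, 6.76 and 6.72 in control arrays (-0.21, 95% interval -0.45 to 0.03). Psmb9 was at 6.10, 6.23 and 6.20, against 6.41, 6.44 and 6.12 in control arrays (-0.14, -0.39 to 0.10). Psmb10 was at 6.51, 6.53 and 6.64, against 6.86, 7.06 and 6.51 in control arrays (-0.25, -0.56 to 0.05). The groups overlapped for each of the 3 genes. Control replicate 3 was the lowest control array for Psmb9 and Psmb10. Without it Psmb10 gave -0.40 and was called (adjusted p = 0.0321 by limma), and Psmb9 gave -0.25 (adjusted p = 0.109 by limma), whereas without control replicate 2 they gave -0.13 and -0.08 and no call. Their direction depended on which probe sets were read, since on the brightest probe set alone Psmb8, Psmb9 and Psmb10 had log2 fold changes of 0.45, 0.44 and 0.10, none of them called. Immune cell markers moved beside them. Of 15 markers of macrophages and other immune cells 7 fell, with Cd74, the class II invariant chain gene, at -2.37 and the lysosomal protease gene Ctss at -1.50, while Aif1 rose (1.80), and the mean over the list was 6.92 to 7.47 in Mgat1 cKO arrays and 7.50 to 7.87 in control arrays. Of 17 genes of the interferon response and antigen presentation 4 fell (23.5%, against 18.4% of all genes) and none rose. The median over this list was -0.11, and Irf1 (-0.52), Irf9 (-0.50) and Erap1 (-0.43) were among those that fell. The part of these cells in the immune subunits' values was not tested. The thymic subunit Psmb11, with 2 probe sets, gave -0.02 (-0.32 to 0.28).

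The 19S regulatory particle had 1 higher and 3 lower of 17 subunits (median -0.11), where 13.3% of all genes rose and 18.4% fell. Of its 6 ATPases 1 rose and 2 fell. Psmc2 was at 10.46, 10.50 and 10.57 in Mgat1 cKO arrays, against 10.18, 10.08 and 10.24 in control arrays, and rose by 0.35 (SE 0.09, adjusted p = 0.0173 by limma). Psmc6 was at 9.23, 9.23 and 9.36, against 9.76, 9.73 and 9.60 in control arrays, and fell by 0.43 (SE 0.09, adjusted p = 0.00777 by limma). The probe sets of each gene shared a sign but differed in size. For Psmc2 16 of 16 were higher (0.03 to 0.95), and for Psmc6 15 of 15 were lower (-0.68 to -0.01). Both genes encode subunits of the ATPase ring that unfolds the substrate. The ATPase gene Psmc4 was at 9.46, 9.37 and 9.60, against 10.01, 9.88 and 9.80 in control arrays, and fell by 0.42 (adjusted p = 0.0126 by limma), whereas Psmc1, Psmc3 and Psmc5 lay between -0.11 and 0.02 and were not called. Psmc2 lost its call without Mgat1 cKO replicate 3 (0.32) or control replicate 2 (0.30), and Psmc4 without Mgat1 cKO replicate 2 (-0.37). On its brightest probe set alone Psmc6 gave -0.10 and no call.

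Among the 11 non-ATPase subunits only Psmd14 was called. PSMD14 removes ubiquitin chains as the substrate enters. Its gene was at 7.54, 7.55 and 7.91 in Mgat1 cKO arrays, against 8.06, 8.18 and 8.05 in control arrays, and fell by 0.43 (SE 0.12, adjusted p = 0.0205 by limma). Replicate 3 of the Mgat1 cKO arrays lay apart from the other two, close to the control values. The call was lost without Mgat1 cKO replicate 1 or 2 (-0.37 each) or control replicate 2 (-0.39), and with the gene read by the median signal of its 22 probe sets on each array (-0.05), although the median of the 22 log2 fold changes was -0.53 and 18 of them were negative. The other 10 non-ATPase subunits, with the ubiquitin receptor Psmd4 at 0.08 and the scaffold subunits Psmd1 at -0.26 and Psmd2 at -0.11, gave no call, but without its probe set of largest change Psmd1 was called (-0.33, adjusted p = 0.0341 by limma).

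The assembly chaperones held the largest fall and 1 of the largest rises. Psmg1, whose protein pairs with PSMG2 in the dimer that builds the alpha ring, was at 8.19, 8.42 and 8.56 in Mgat1 cKO arrays, against 9.19, 9.14 and 9.03 in control arrays. The fall was 0.73 (SE 0.11, adjusted p = 0.00128 by limma) and all 8 probe sets were lower. The call held in all 17 alternative fits (-0.81 to -0.59). Psmg2, its partner in the dimer, was at 8.34, 8.55 and 8.64, against 8.57, 8.44 and 8.42 in control arrays (0.03, 95% interval -0.20 to 0.27). The groups were apart for Psmg1 and overlapped for Psmg2. Psmg3 (0.12) and Psmg4 (0.02), which form another dimer at the alpha ring, were not called.

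The chaperones of the 19S base went opposite ways. Psmd10, also known as gankyrin, was at 7.82, 7.58 and 7.67 in Mgat1 cKO arrays, against 7.03, 7.02 and 7.29 in control arrays, and rose by 0.58 (SE 0.11, adjusted p = 0.00433 by limma). Psmd5 was at 8.28, 8.43 and 8.62, against 8.94, 8.95 and 8.90 in control arrays, and fell by 0.49 (SE 0.10, adjusted p = 0.00722 by limma). Of the probe sets, 7 of 8 were higher for Psmd10 and 11 of 11 lower for Psmd5, and both calls held in all 17 alternative fits. Psmd9, the third base chaperone measured, was at 7.82 to 7.99 in Mgat1 cKO arrays and 7.93 to 7.95 in control arrays (-0.02).

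Of the activators and the inhibitor, Psme2, Psme4 and Psmf1 were higher and Psme1 lower, where 13.3% of all genes rose and 18.4% fell. PSME1 and PSME2 are the alpha and beta chains of 1 heteromeric ring, PA28, which caps the core and is induced by interferon. Psme1 was at 8.19, 8.45 and 8.59 in Mgat1 cKO arrays, against 8.72, 8.95 and 8.76 in control arrays, and fell by 0.40 (SE 0.12, adjusted p = 0.0326 by limma). Psme2 was at 6.61, 6.89 and 6.52, against 6.28, 6.004 and 5.80 in control arrays, and rose by 0.64 (SE 0.14, adjusted p = 0.00835 by limma). The groups did not overlap for either gene. Of the 14 Psme1 probe sets 13 were lower, but the call was lost without Mgat1 cKO replicate 1 (-0.29) or 2 (-0.42) or control replicate 2 (-0.33) or 3 (-0.42), and with each array centred on its median (-0.35). Psme2 had only 3 probe sets, all higher, and 1 of them had a number that falls among genes of chromosome 11 (32 of 34 named neighbours), while the other two fall among genes of chromosome 14. RefSeq places Psme2 on chromosome 14 and a near copy, Psme2b, on chromosome 11, so which of these genes that probe set reads is uncertain. Without it the log2 fold change of Psme2 was 0.54 and the call held (adjusted p = 0.0145 by limma). The means of the Mgat1 cKO and control arrays were then 8.17 and 7.62, against 6.67 and 6.03 over all 3 probe sets. The probe set left out was thus dimmer than the mean of the others.

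Psme3, which forms a nuclear activator ring by itself, had a gene value of -0.28 (adjusted p = 0.0845 by limma), with 8.35, 8.52 and 8.65 in Mgat1 cKO arrays, against 8.88, 8.80 and 8.66 in control arrays. Of its 16 probe sets 12 were lower, and 1 noisy probe set was 1.53 higher with control values between 3.55 and 7.09. Left out, it gave -0.40 and a call (adjusted p = 0.0147 by limma). Psmf1, known as PI31 and able to inhibit the core in vitro, was at 10.62, 10.60 and 10.42 in Mgat1 cKO arrays, against 10.19, 10.05 and 10.11 in control arrays, and rose by 0.43 (SE 0.10, adjusted p = 0.00898 by limma). Its 3 called probe sets were all higher, at 1.51, 0.76 and 0.62, and the call held in all 17 alternative fits.

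Psme4, the gene of PA200, rose by 0.29 (SE 0.09, adjusted p = 0.0302 by limma), with 11.59, 11.56 and 11.49 in Mgat1 cKO arrays, against 11.27, 11.21 and 11.29 in control arrays. The groups did not overlap, but 1 of its 44 probe sets carried a large share of the difference. Probe set 17248154 was at 11.15, 11.11 and 11.02 in Mgat1 cKO arrays, against 6.59, 6.36 and 4.25 in control arrays, a log2 fold change of 5.36 (SE 0.60, adjusted p = 0.00465 by limma over 233753 probe sets). That amounts to 41.9% of the difference in the gene value. The median of the other 43 probe sets was 11.88, 11.95 and 11.94 in Mgat1 cKO arrays, where 9, 7 and 6 of them were dimmer than this one. It thus lay within the lower part of the gene there, while in control arrays only 2, 2 and 1 of the other 43 were dimmer.

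None of the other 43 Psme4 probe sets changed by as much. Their median log2 fold change was 0.16, from -0.21 to 1.56, with 35 higher and 8 lower in Mgat1 cKO germ cells. The upper end came from dim probe sets, and among the 40 with a mean signal over 9 the range was -0.21 to 0.57. No other Psme4 probe set passed the test. By limma 0 were called (adjusted p = 0.101 or above) and 2 had a p under 0.05 before adjustment. Without probe set 17248154 the gene value differed by 0.17 (95% interval -0.03 to 0.37) and was no longer called (adjusted p = 0.169 by limma). The call was also lost when any one array other than Mgat1 cKO replicate 3 was left out (0.27 to 0.31).

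**Figure D3:**
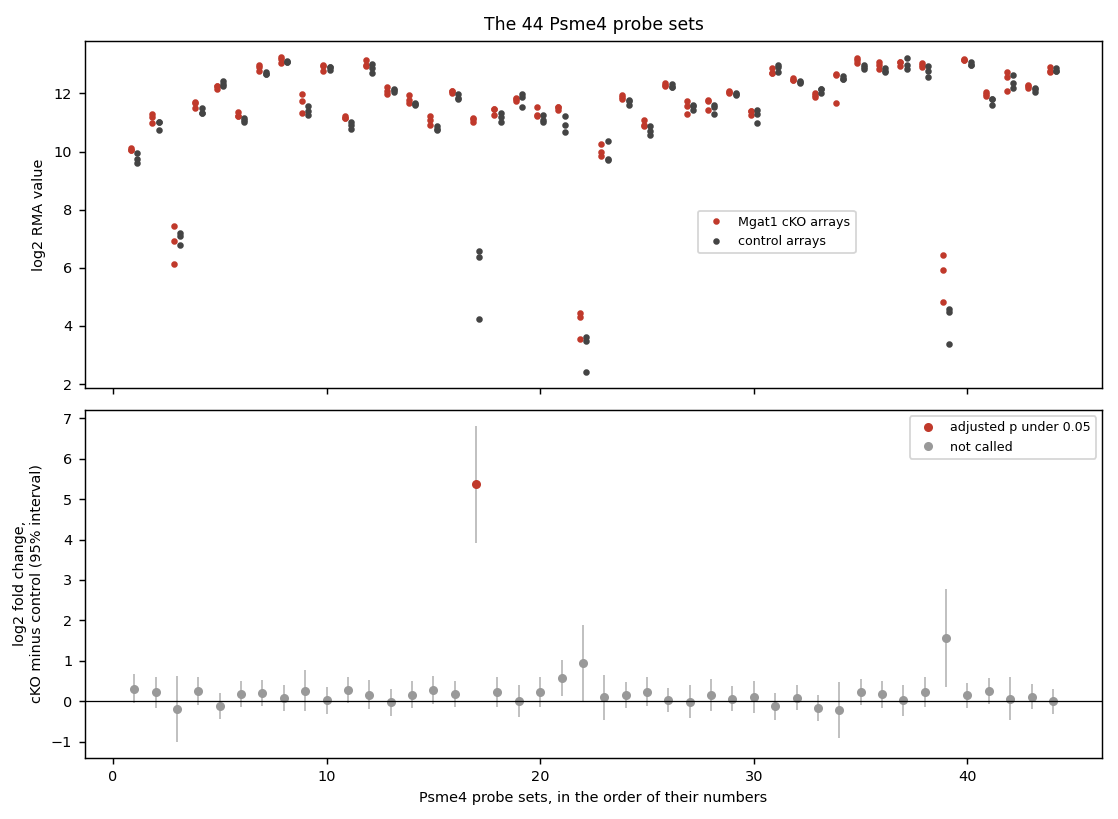
The 44 Psme4 probe sets in the order of their numbers, with the log2 RMA value in each array above (red, Mgat1 cKO; grey, control) and the log2 fold change with its 95% interval below. Probe set 17248154 stands at 5.36, while the other 43 lie between -0.21 and 1.56 and none of them is called.

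Probe sets that stood apart from the rest of their gene were rare but not confined to Psme4. By a rule set after its values were seen (at least 5 probe sets in the gene, an absolute log2 fold change of at least 3 with a call, and a median of the others within 0.5 of 0), 87 probe sets in 76 of 15943 genes stood apart, 74 of them higher and 13 lower in Mgat1 cKO germ cells. Psme4 was the only proteasome member among them, and its probe set ranked 10th of the 87 by log2 fold change. Over all 233753 probe sets, 17248154 ranked 19th by log2 fold change, and 0.0128% were called higher with a log2 fold change of at least 5. RefSeq places Psme4 on chromosome 11, as it does Mgat1, and 3 of the 87 probe sets belonged to genes of that chromosome, the other two to Stat5a and Ccdc46 (placed under its current symbol). Whether the probe set reads an exon, an intron or a different transcript was not stated in the sources at hand.

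Smaller departures of single probe sets were seen in other members. Each probe set was set against the mean of the others of its gene on the same array, and 5 members had a probe set that differed (10.6% of 47, against 12.0% of all genes tested). For Psmc1, the probe set 17277914 was at 10.39, 10.21 and 10.41 in Mgat1 cKO arrays, against 9.16, 9.12 and 9.07 in control arrays (1.22, adjusted p = 0.00439 by limma), while 8 of the gene's 10 probe sets were lower and the gene value was -0.03. Psma2 behaved alike, with probe set 17285394 at 10.12, 10.37 and 10.72, against 9.54, 9.06 and 9.28 in control arrays (1.11, adjusted p = 0.0304 by limma), while 8 of 11 were lower and the gene value was -0.05. For both genes a gene value near 0 was the mean of probe sets of opposite sign. Without the probe set named, Psmc1 gave -0.17 (adjusted p = 0.222 by limma) and Psma2 -0.17 (adjusted p = 0.257 by limma). Neither gene was then called, and the groups overlapped. Psmf1 (17392879, 1.51 higher) and Psmc3 (17373162, 0.93 lower) were the others beside Psme4. In Psma6, beside the dim probe set, 3 were lower, whereas the 7 with the highest numbers were all higher, by 0.36 to 0.73. By the diffSplice test, which compares the probe sets of a gene in 1 model, 10 of 47 members differed among their probe sets (21.3%, against 29.8% of genes). That test pools the spread of the probe sets of a gene and called too many genes on simulated arrays, so its calls are given as counts only.

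**Figure D4:**
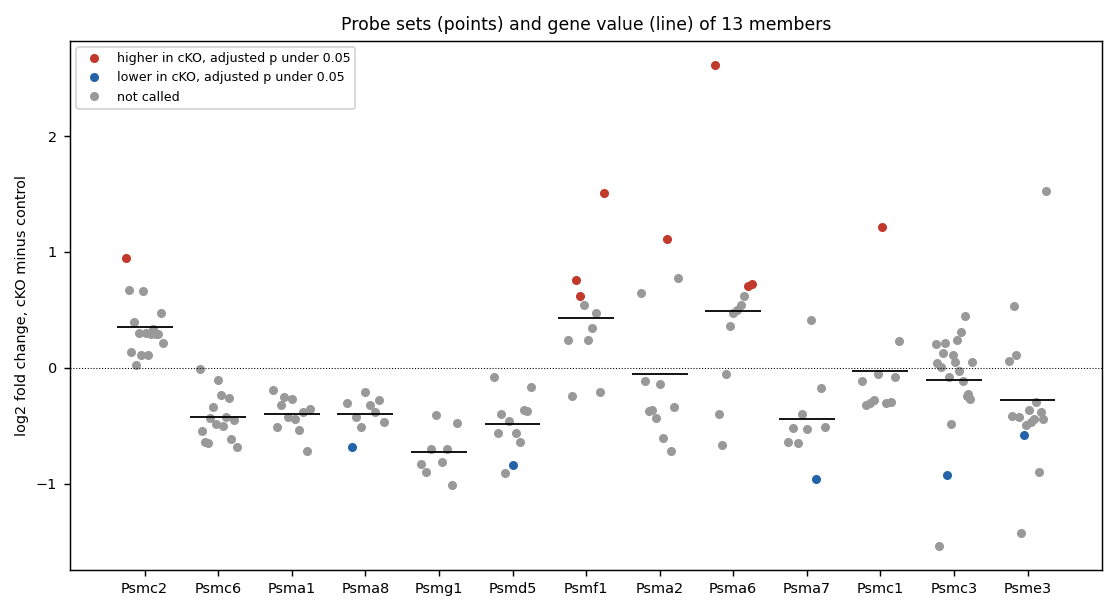
Log2 fold change of each probe set (points, coloured where called) and of the gene (line) for 13 members, Mgat1 cKO minus control. The probe sets of Psmc2, Psmc6, Psma1, Psma8, Psmg1 and Psmd5 lie on 1 side of 0, whereas those of Psma2, Psmc1, Psmc3 and Psme3 spread to both sides.

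Over all 576 member probe sets, 13 were called higher (4.98% of all probe sets were) and 10 lower (3.97% of all probe sets were), together 3.99% of the members' probe sets, against 8.95% of all. Psma1, Psmb2, Psmc6 and Psmg1 fell and Psme2 rose as genes with no single probe set called.

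The shift of alternative against standard subunits was compared on each array in 8 pairs, where 3 arrays per group cannot give a p under 0.1. For the immune subunits the change exceeded that of the standard counterpart by 0.01 (Psmb8 and Psmb5), -0.11 (Psmb9 and Psmb6) and -0.13 (Psmb10 and Psmb7), with overlapping groups and exact permutation p = 0.9, 0.3 and 0.4. For Psmb11 and Psmb5 it was 0.19 (exact permutation p = 0.5). The activators differed more from Psme4. The Psme4 value in these pairs included probe set 17248154, which made up 41.9% of its change, and without it Psme4 differed by 0.17. The Psme3 value included its probe set that was 1.53 higher. The change of Psme1 was below that of Psme4 by 0.69 and the change of Psme3 below it by 0.57 (differences -0.69 and -0.57), whereas the change of Psme2 was above it by 0.35. The groups did not overlap in these 3 pairs, and each reached the smallest exact permutation p, 0.1, or 0.267 adjusted over the 8 pairs, so none of the 8 differences passed the test.

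**Figure D5:**
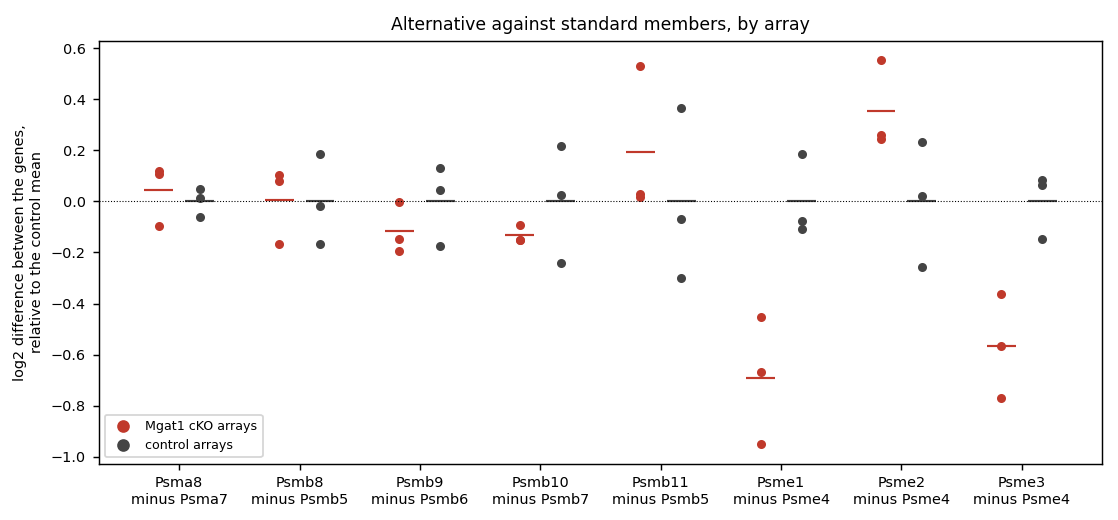
Log2 difference between the genes of each pair on each array, relative to the control mean (red, Mgat1 cKO on the left; grey, control on the right; lines, group means). The groups overlap for the 5 catalytic and alpha subunit pairs and are apart for the 3 activators set against Psme4, whose value includes probe set 17248154.

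Other genes of the pathway, taken from lists of proteins that work with the proteasome, held 3 that rose (10.0%, against 13.3% of all genes) and 11 that fell (36.7%, against 18.4% of all genes) of 30 measured (median -0.19). The 11 became 4 on the brightest probe set, 3 on the median signal of the probe sets, 7 by the one-way test, 5 and 6 without control replicate 1 or 2, and 6 and 7 without Mgat1 cKO replicate 1 or 2. Of 11 associated proteins, 5 fell, among them Fbxo7 (-0.45), AI314180, the gene of the adaptor ECM29 (-0.43), Zfand5 (-0.42) and the core maturation factor Pomp (-0.29), and 1 rose, Shfm1 (0.39), the gene of a small subunit of the 19S lid, named here after its value was seen, as was Pomp. Of 10 shuttle and unfoldase genes 1 rose and 2 fell. The one that rose was Ubqlnl, at 8.74, 8.52 and 8.38 in Mgat1 cKO arrays, against 5.71, 5.18 and 5.59 in control arrays (3.05, adjusted p = 1.29e-06 by limma), a ubiquilin-like gene and the largest change in these lists. Nsfl1c (-0.65), a cofactor of the unfoldase VCP, and Vcp itself (-0.30) fell. Uba6 (-0.75), a ubiquitin-activating enzyme, was the only 1 of 6 listed genes of ubiquitin and its activation with a value here.

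Among 8 regulators of proteasome genes, 1 rose (12.5%, against 13.3% of all genes) and 3 fell (37.5%, against 18.4% of all genes). Nfe2l1, the transcription factor that raises proteasome genes when the proteasome is inhibited, gave -0.17 (95% interval -0.40 to 0.07), while its processing factors went opposite ways, with the deglycosylase gene Ngly1 at 11.36, 11.34 and 11.29 in Mgat1 cKO arrays, against 10.64, 10.65 and 10.91 in control arrays (0.60, adjusted p = 0.00221 by limma), and the protease gene Ddi2 at -0.35. NF-Y, a trimer that binds CCAAT boxes, had 1 subunit gene called. Nfyb was at 6.17, 6.42 and 6.95, against 7.36, 7.41 and 7.25 in control arrays, and fell by 0.83 (adjusted p = 0.00654 by limma), while Nfya (-0.13) and Nfyc (-0.21) were not called. Stat3 fell by 0.39.

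The 250 bases before the start of the gene were searched in RefSeq promoters for CCGGAAG (a site of the ETS type), CCAAT and TGACNNNGC (the core of the antioxidant response element, to which Nfe2l1 binds), on both strands. These motifs were chosen with the results known, and none contains another. A promoter was found for 41 of the 49 members. CCGGAAG was present in 13 of the 41 (31.7%, against 6.91% of the 32851 promoters of the table), CCAAT in 15 (36.6%, against 33.8%) and TGACNNNGC in 5 (12.2%, against 10.2%). The table also holds promoters of noncoding genes. Psmc3ip, which is not a proteasome gene, is counted among the 41, the 13 with CCGGAAG and the 15 with CCAAT. Of the 13 members with CCGGAAG, 3 rose, 2 fell and 8 were not called, and the 15 with CCAAT were divided as 3, 3 and 9, so members with either motif moved both ways. The 150 bases before the start are printed for Psme4, Psmg1 and Psmc6, which share CCGGAAG while Psme4 rose and the other two fell, and for Psmd10, which has CCAAT on the opposite strand (ATTGG) at 2 places and rose. They are from GRCm38.p6, 5′ to 3′ on the strand of the gene, at chr11:30771625-30771774 (plus strand), chr16:95990961-95991110 (minus), chr14:45329674-45329823 (plus) and chrX:140956712-140956861 (minus), with the motif in capitals.
Psme4: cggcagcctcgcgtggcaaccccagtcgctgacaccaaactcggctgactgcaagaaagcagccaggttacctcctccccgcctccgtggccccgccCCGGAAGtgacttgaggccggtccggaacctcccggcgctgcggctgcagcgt
Psmg1: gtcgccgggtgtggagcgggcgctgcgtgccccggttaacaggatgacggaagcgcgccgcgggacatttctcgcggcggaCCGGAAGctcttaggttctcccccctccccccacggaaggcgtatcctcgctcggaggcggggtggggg
Psmc6: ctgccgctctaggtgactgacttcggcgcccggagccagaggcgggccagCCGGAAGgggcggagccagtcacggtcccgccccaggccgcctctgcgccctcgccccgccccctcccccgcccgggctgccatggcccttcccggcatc
Psmd10: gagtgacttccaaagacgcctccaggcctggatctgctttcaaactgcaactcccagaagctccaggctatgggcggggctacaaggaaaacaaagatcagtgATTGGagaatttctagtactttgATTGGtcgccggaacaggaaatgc

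The CCGGAAG of Psme4 begins 53 bases before the start, that of Psmg1 69 and that of Psmc6 100 bases before it. A motif in the sequence is a match of letters, and no binding was measured. Psmc3ip, the gene that carries the symbol without being part of the proteasome, was at 9.85, 9.94 and 10.06 in Mgat1 cKO arrays, against 10.03, 10.01 and 9.95 in control arrays (-0.05). It was not called, so the counts of members that rose or fell do not include it.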

How the data were processed

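RNA of germ cells from 6 mice was hybridised to 1 Affymetrix mouse gene array each. The deposited values are log2 signals per probe set, which the authors made with RMA in Affymetrix Expression Console, and they were used as deposited. The sources used here do not give the versions of these tools, the annotation or the build. Of 269751 probe sets, 233753 (86.7%) had 1 gene symbol in the platform annotation, which is old, and the 5139 with several symbols and the 30859 with none listed were left out. A gene value is the mean of its probe sets.

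Differences were tested with limma (version 3.58.1, R 4.3.3) over 23152 genes, or over all probe sets with 1 symbol, with Benjamini-Hochberg adjustment and a threshold of 0.05, and the fits were tested on simulated data. With 3 arrays a group the median SE of a log2 fold change was 0.109. Single pairs were compared by exact permutation. The methods' one-way test served as an alternative to limma. Arrays report no counts, so their number limits the precision.

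Named members were Psme4 and its probe sets, the alternative subunits and their counterparts, the Psme, Psmf and Psmg genes, the called members, and Psmc3ip, and others were named after their values were seen. Of pathway and marker lists up to 3 called genes of largest change were named. The members and lists were chosen with earlier results of these data known. Promoters are from RefSeq, and symbols were matched exactly.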

Additional observations from a re-analysis of the deposited data

Results flagged for a closer look

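Probe sets that carry 2 gene symbols were outside every gene value, and 1 of the 8 such probe sets that name a member changed. Probe set 17215069, listed for Armc9 and Psmd1, was at 9.71, 9.29 and 9.81 in Mgat1 cKO arrays, against 7.42, 8.003 and 7.40 in control arrays, a log2 fold change of 1.99 (SE 0.23, adjusted p = 0.00508 by limma). The other 3 probe sets with the same 2 symbols gave -0.10, -0.59 and 0.14 and were not called, and the 22 probe sets of Psmd1 alone gave a gene value of -0.26. The 4 shared by AY074887 and Psma4 were not called.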

How the results depend on the processing

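Of the 16 called members, Psmf1, Psmg1, Psmd10 and Psmd5 kept their call in all 17 alternative fits, though none of them reached 2-fold, 11 lost it in at least 1 fit, and Psma7 turned sign on its brightest probe set (0.42). The counts moved with the summary of the probe sets, the test and the arrays that entered. Reading each gene by its brightest probe set gave 3 members higher and 6 lower, and the median signal of the probe sets on each array gave 3 and 5, against 6 and 10. The methods' one-way test gave 5 lower, and a demand for 2-fold left 0 in either direction. Without 1 array at a time, 4 to 5 members rose and 5 to 11 fell. The causes were not tested.

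The replicate numbers did not pair the arrays, since the deviations of same-numbered arrays correlated at 0.03, 0.10 and -0.06. With the replicate number as a block 5 members rose and 10 fell, Psme4 losing its call (adjusted p = 0.0578 by limma), and 2 Psme4 probe sets were called. An intensity trend with robust variance called 3 Psme4 probe sets, against 1.

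Over all genes, 4255 fell, against 2194 on the brightest probe set, 2629 on the median and 2408 by the one-way test, and with 2-fold 968 rose and 113 fell. Without 1 array at a time 2369 to 3111 genes rose and 2911 to 3737 fell. In the pathway lists 11 fell, against 4 on the brightest probe set, 3 on the median, 7 by the one-way test and 5 to 10 without 1 array. The member median was -0.055 on the median of the probe sets. The 20S median ran from -0.21 to -0.11 without 1 array. The immune median was 0.44 on the brightest probe set, 0.11 without the dimmest 50% of probe sets and -0.34 on the median. The number of members with differing probe sets was 10 by diffSplice and 5 by the test against the mean of the others, which was added after seeing the data.

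Of the pairs, Psma8 minus Psma7 was -0.80 on the brightest probe set and 0.40 on the median. Psmb8 minus Psmb5 was 0.70 on the brightest and 0.39 without the dimmest 50%. Psmb9 minus Psmb6 was 0.52 on the brightest, 0.075 without the dimmest 50% and -0.35 on the median. Psmb10 minus Psmb7 was 0.17 on the brightest and -0.30 without the dimmest 25%, and Psmb11 minus Psmb5 was -0.17 and -0.20 in the same settings. Psme1 minus Psme4 was -0.25 on the brightest and -0.43 on the median, and Psme3 minus Psme4 was -0.78 without the dimmest 50% and -0.32 on the median.

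Signs turned only for named members that were not called, apart from Psma7. On the brightest probe set Psmb8 gave 0.45, Psmb9 0.44, Psmb10 0.10 and Psmg4 -0.32. Without the dimmest 50% Psmb8 gave 0.17, Psmb9 0.11 and Psmb6 0.031, and without the dimmest 25% Psmg4 gave -0.27. With each array centred on its median Psmb11 gave 0.027, Psmb6 0.020 and Psmc3ip 0.0024. On the median of the probe sets Psmc3ip gave 0.067 and Psmg4 -0.18. Without the probe set of largest change Psmb11 gave 0.37 and Psmg4 -0.16. Without 1 array at a time Psmb11 ran from -0.14 to 0.11, Psmc3ip from -0.10 to 0.0045, Psmg2 from -0.032 to 0.12 and Psmg4 from -0.070 to 0.14. The immune subunits, Psmb11, Psma5, Psmg3 and Psmg4 had gene values of at most 7.06 on any array, where signal over background limits the precision. Psme2, which was called, had values of 5.80 to 6.89 over its 3 probe sets. Without the dim probe set 17262225 its values were 7.45 to 8.26.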
